A study of Homo sapiens with 18 samples.

Results

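The genes described here are 10 regulators of the G1 phase and of growth arrest: the CDK inhibitors CDKN1A, CDKN1B, CDKN1C, CDKN2A, CDKN2B and CDKN2C, the D-type cyclins CCND2 and CCND3, and the stress genes GADD45A and GADD45B. They were taken by gene symbol from a count table of 19901 protein-coding genes, and all 10 passed the filter on low counts that left 15475 genes for testing. mRNA sequencing was performed in 3 established head and neck squamous cell carcinoma (HNSCC) cell lines, Detroit 562 from a metastasis of a pharyngeal tumor, FaDu from the hypopharynx and SCC-9 from the tongue. In each line, 3 libraries came from untreated cells and 3 from cells treated with 50 ng/mL hepatocyte growth factor (HGF), the ligand of the receptor tyrosine kinase Met. Treatment lasted 16 h according to the records of the samples and to the paper's account of the sequencing, whereas the record of the series names 48 h. All cells carried the genetic background of their line, and the labels name no experimental deletion or introduction of a gene. SCC-9 medium was DMEM F12 with HEPES and 400 ng/mL hydrocortisone. The other lines grew in MEM-α, for which no hydrocortisone is listed, so that line and medium cannot be told apart.

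Progression through G1 depends on D cyclins, which activate CDK4 and CDK6 to phosphorylate the retinoblastoma protein and release E2F transcription factors. INK4 proteins (CDKN2 genes) bind CDK4 and CDK6 and keep the D cyclins away, whereas CIP/KIP proteins (CDKN1 genes) bind cyclin-CDK complexes, foremost those of CDK2. GADD45 proteins are induced by DNA damage and other stress and act in growth arrest, DNA repair and p38 MAPK signaling. The CDKN2A locus is among the most frequently lost or silenced loci of HNSCC. The levels below are mRNA levels of cell populations, in which fewer expressing cells and less RNA per cell cannot be told apart.

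The libraries held between 35304770 and 44003970 counts, with a median of 40138919. All 8 squamous epithelial markers examined were detected in every line, although KRT14 was close to 0 in Detroit 562, where 2 of the 8 (KRT5 and CDH1) fell with HGF. The 6 fibroblast markers summed to 29.8 to 54.3 CPM (counts scaled to library size) in untreated and 15 to 27.6 in treated Detroit 562, where COL1A1 and COL1A2 fell and COL3A1, DCN, LUM and PDGFRB were at or near 0. The leukocyte gene CD68 rose (log2 fold change 0.66) with PTPRC, CD3E and LYZ near 0, and the 3 endothelial markers summed to between 0.487 and 2.9 CPM in this line, of which VWF fell. In untreated SCC-9 the fibroblast, leukocyte and endothelial markers summed to 77.5 to 99.4, 54.5 to 55.4 and 0.816 to 1.38 CPM, respectively. Whether these shifts and levels play a part in the changes and line differences below was not tested. Libraries of the same replicate number deviated together from their group means in every line, so results with a replicate block are given where they alter a call of the 10 genes.

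In Detroit 562, 5 of the 10 genes changed with HGF. CDKN1A and GADD45A were higher, and CDKN1C, CDKN2B and CDKN2C were lower. Across all genes tested, 17.9% passed the same test in this line, 6.16% upward and 11.7% downward. A change counted as passing when the adjusted p was under 0.1 and the log2 fold change reached 0.4 in either direction (edgeR's quasi-likelihood test, Benjamini-Hochberg adjustment over all 15475 genes, used for every adjusted p that follows). The median log2 fold change was -0.14 over the 10 genes and -0.01 over all genes. With the replicate block 7 of the 10 were called, against 21.5% of all genes. With 1 Detroit 562 library left out, between 3 and 7 were called, against 10.2% to 23.2% of all genes. CDKN2B and CDKN2C were called in all 6 of these reduced sets, CDKN1C in 5, CDKN1A in 4, GADD45A in 3, CCND3 in 2 and CDKN2A in 1.

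**Figure D1:**
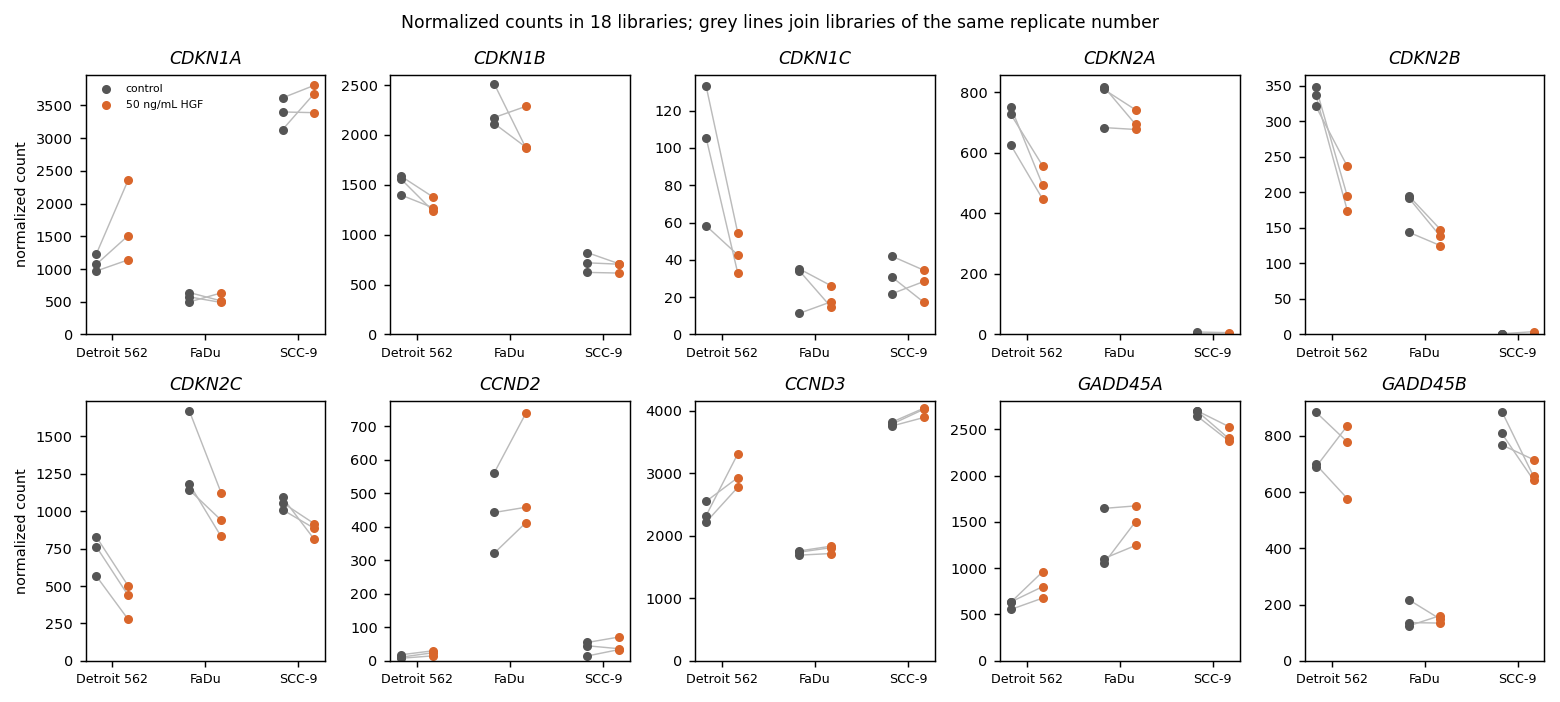
Normalized counts (linear axis from 0) of the 10 genes in each of the 18 libraries, by cell line, with grey for control, orange for 50 ng/mL HGF and lines joining libraries of the same replicate number. In Detroit 562 all 3 treated libraries lie below all 3 controls for CDKN2B and CDKN2C, and SCC-9 points for CDKN2A and CDKN2B sit near 0.

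Among the CIP/KIP inhibitors, CDKN1A (p21), which arrests cells under stress and binds CDK2 complexes, had normalized counts of 1073, 970.3 and 1232 in the untreated Detroit 562 libraries 1, 2 and 3. With HGF the counts were 1509, 1140 and 2356. Each treated library was above the control of its own number, but HGF library 2 lay below control library 3, so that the groups overlapped. The mean went from 1092 ± 132 to 1668 ± 623 (SD, n = 3), a log2 fold change of 0.61 ± 0.187 (SE, adjusted p = 0.0258). Library 3 carried much of the rise: without HGF library 3 it was 0.28 on the log2 scale (adjusted p = 0.178), and without control library 2 the gene did not pass either (adjusted p = 0.106). The same held when the 6 Detroit 562 libraries were fitted alone (adjusted p = 0.106).

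CDKN1C (p57), an imprinted inhibitor that restrains proliferation during differentiation, was the least abundant CIP/KIP gene per kilobase of exon. Its normalized counts were 133.3, 105.6 and 58.3 in untreated and 54.56, 33.01 and 42.7 in treated Detroit 562 cells. No treated library reached the lowest control, and the mean fell from 99.06 ± 37.9 to 43.42 ± 10.8 (SD, n = 3). The log2 fold change of -1.19 ± 0.377 (SE, adjusted p = 0.0303) was the steepest fall among the 10 genes in this line. The call was lost without the high control library 1 (log2 fold change -0.91, adjusted p = 0.163), a set in which the calls over all genes also went from 2766 to 1586.

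CDKN1B (p27), the inhibitor that accumulates in quiescent cells and is mainly controlled by protein turnover, did not pass. Its counts were 1556, 1397 and 1585 in untreated and 1239, 1271 and 1379 in treated Detroit 562 cells. The groups did not overlap, yet the log2 fold change was only -0.22 ± 0.107 (SE, adjusted p = 0.134), and with the block it stayed under the minimum fold.

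The INK4 genes had lower values in all 3 same-numbered pairs of Detroit 562, with no overlap between groups for any of the 3. Across all genes, 20.1% were lower without overlap in this line and 32.3% were lower in all 3 pairs. CDKN2C (p18), an inhibitor of CDK4 and CDK6, showed the largest fall of the family. Its counts were 827.9, 762.3 and 565.7 in untreated and 502, 438.2 and 278.1 in treated cells. The lowest control library, number 3, was thus paired with the lowest treated library. The mean fell from 718.6 ± 136 to 406.1 ± 115 (SD, n = 3), a log2 fold change of -0.82 ± 0.195 (SE, adjusted p = 0.00746). With any single Detroit 562 library left out it was -0.61 or steeper.

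CDKN2B (p15), best known as a target of TGF-β signaling, had counts of 348.7, 337.6 and 321.7 in untreated cells. With HGF they were 194.4, 174.1 and 236.7. The controls were the tightest of the inhibitors, with a coefficient of variation of 4.04%, and every treated library was well below them. The mean went from 336 ± 13.6 to 201.7 ± 31.9 (SD, n = 3), and the log2 fold change was -0.74 ± 0.224 (SE, adjusted p = 0.025).

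CDKN2A encodes p16, an INK4 protein, and from a separate promoter and leading exon p14ARF, a nucleolar tumor suppressor outside the INK4 family. The gene counts cannot separate the transcripts. Its counts were 726.7, 750.3 and 625.1 in untreated and 557.5, 494 and 447.7 in treated Detroit 562 cells, a decrease in every pair. The log2 fold change of -0.49 ± 0.223 (SE) did not pass (adjusted p = 0.119). It passed with the replicate block (-0.49 ± 0.0849, SE, adjusted p = 0.000379), when Detroit 562 was fitted alone (adjusted p = 0.0348), and with DESeq2 without its fold change prior (adjusted p = 0.00142). CDKN2A and CDKN2B lie next to each other on the minus strand of chromosome 9 in GRCh38, at positions 21967753 to 21995301 and 22002903 to 22009363, and neither overlaps another gene of the table on that strand.

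**Figure D2:**
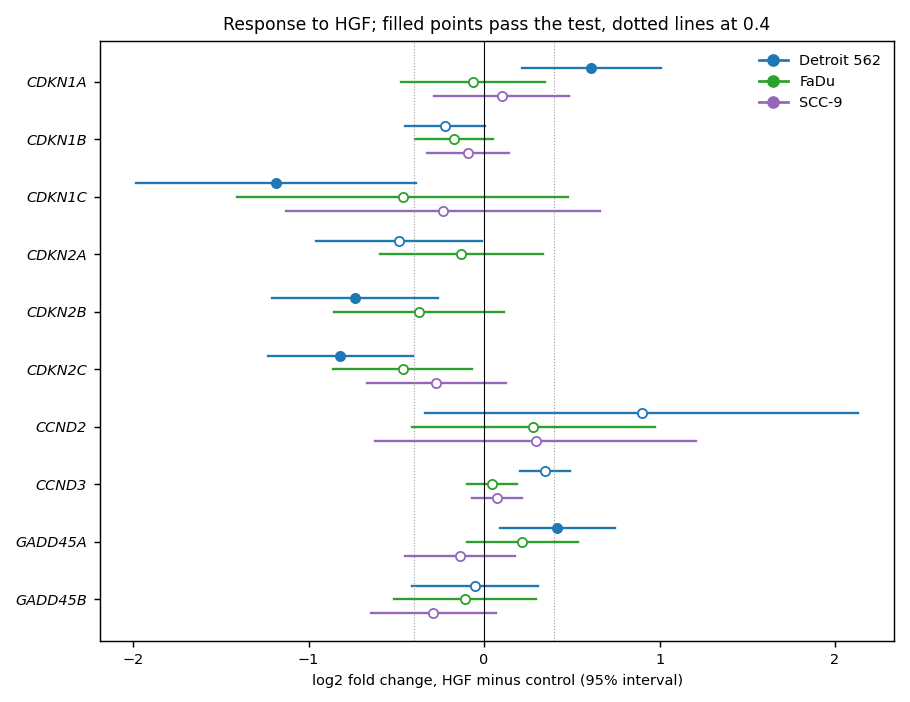
Log2 fold changes of HGF against control with 95% intervals for each gene in Detroit 562, FaDu and SCC-9, where filled points passed the test and dotted lines mark the minimum fold of 0.4. Detroit 562 alone has filled points, which are CDKN1A, CDKN1C, CDKN2B, CDKN2C and GADD45A, and no SCC-9 fold is drawn for CDKN2A and CDKN2B because both groups were near 0.

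The D cyclins had higher values after HGF in each Detroit 562 pair, but neither was called. Of all genes, 30.6% were higher in all 3 pairs. CCND3, a widely expressed cyclin D, had counts of 2321, 2218 and 2550 in untreated and 3309, 2775 and 2930 in treated cells, without overlap. Its adjusted p was the lowest of the 10 genes (0.00282), whereas the log2 fold change of 0.35 ± 0.0672 (SE) remained under the minimum of 0.4. It exceeded the minimum when control library 3 or HGF library 2 was left out. CCND2, whose expression is more restricted among tissues, had only 19, 10 and 7 raw counts in untreated and 30, 21 and 12 in treated Detroit 562 libraries. Its fold change on the log2 scale reached 0.90 ± 0.583 (SE, adjusted p = 0.27) without the block and 0.89 ± 0.34 (SE, adjusted p = 0.042) with it, where it was called.

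GADD45A, a gene induced by DNA damage, had normalized counts of 635.1, 554.3 and 632.7 in untreated Detroit 562 cells. They were 799.6, 676.1 and 960.1 with HGF, and the groups did not overlap. The mean rose from 607.3 ± 45.9 to 811.9 ± 142 (SD, n = 3), a log2 fold change of 0.42 ± 0.155 (SE, adjusted p = 0.0587) that lay just above the minimum fold. Without HGF library 3 it was 0.28 (adjusted p = 0.252), without control library 2 the adjusted p was 0.185, and without control library 1 it was 0.122. GADD45B, an NF-κB and TGF-β responsive relative, had counts of 885.5, 699.2 and 688.8 in untreated and 778.7, 577.1 and 836.9 in treated cells. The groups were interleaved, and the log2 fold change was -0.05 with a 95% interval from -0.41 to 0.31.

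**Figure D3:**
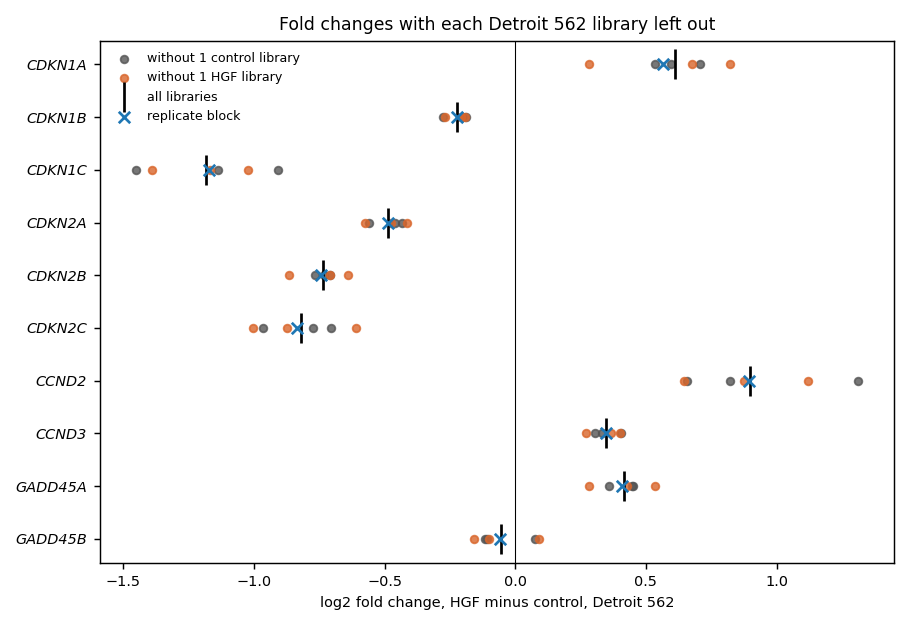
Log2 fold changes of HGF against control in Detroit 562 with all libraries (black bar), with the replicate block (blue cross) and with each of the 6 libraries left out in turn (grey for a control, orange for an HGF library). CDKN1A spans 0.28 to 0.82 and CDKN1C -1.45 to -0.91, whereas CDKN1B stays between -0.28 and -0.19.

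The promoter windows of the genes called in Detroit 562 are shown because CDKN1A rose while CDKN2B and CDKN2C fell. RefSeq windows (GRCh38.p14) were given for 7 of the 10 genes, 12 windows in all, and CCND2, CDKN1C and GADD45A were without an entry. The 250 bases before each start were searched on both strands for 5 motifs: AP-1 (TGANTCA), the E-box (CACGTG), SP1 (GGGCGG), ETS (CCGGAA) and E2F (TTGGCG). These occur in 6.57%, 6.34%, 42.6%, 14.5% and 7.45% of all 35116 windows, respectively. Capitals mark any of these motifs, on either strand, and matches can overlap. The sequences run 5′ to 3′ along the gene's strand.
CDKN1A, chr6:36678464-36678713 (+ strand): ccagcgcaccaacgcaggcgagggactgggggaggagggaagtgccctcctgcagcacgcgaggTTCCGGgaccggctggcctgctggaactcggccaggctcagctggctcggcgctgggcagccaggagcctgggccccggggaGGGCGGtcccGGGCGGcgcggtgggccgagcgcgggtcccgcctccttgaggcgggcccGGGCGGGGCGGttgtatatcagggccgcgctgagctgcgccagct
CDKN2B, chr9:22009306-22009555 (- strand): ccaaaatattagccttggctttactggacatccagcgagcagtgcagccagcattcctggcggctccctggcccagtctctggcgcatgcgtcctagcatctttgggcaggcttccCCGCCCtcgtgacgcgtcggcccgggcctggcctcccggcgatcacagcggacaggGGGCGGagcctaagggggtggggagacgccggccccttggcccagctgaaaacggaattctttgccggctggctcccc
CDKN2C upstream start, chr1:50960495-50960744 (+ strand): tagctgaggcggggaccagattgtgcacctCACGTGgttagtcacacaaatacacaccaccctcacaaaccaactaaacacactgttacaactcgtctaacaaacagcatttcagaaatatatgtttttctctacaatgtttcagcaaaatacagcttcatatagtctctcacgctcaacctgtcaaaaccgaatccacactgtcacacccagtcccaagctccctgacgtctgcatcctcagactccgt
CDKN2C middle start, chr1:50968456-50968705 (+ strand): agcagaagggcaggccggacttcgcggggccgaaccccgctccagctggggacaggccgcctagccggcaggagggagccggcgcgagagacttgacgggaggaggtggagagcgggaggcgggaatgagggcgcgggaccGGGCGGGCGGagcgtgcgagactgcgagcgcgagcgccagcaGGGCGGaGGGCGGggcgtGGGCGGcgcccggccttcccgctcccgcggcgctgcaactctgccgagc
CDKN2C downstream start, chr1:50969995-50970244 (+ strand): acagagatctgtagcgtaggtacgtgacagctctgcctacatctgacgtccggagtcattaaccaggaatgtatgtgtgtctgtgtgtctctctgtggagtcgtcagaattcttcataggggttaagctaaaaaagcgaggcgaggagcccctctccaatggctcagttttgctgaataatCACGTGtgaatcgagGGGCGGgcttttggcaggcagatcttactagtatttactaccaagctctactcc

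The CDKN1A window had 4 SP1 matches and 1 ETS match and a GC content of 76.4%. The CDKN2B window had 2 SP1 matches at 66.4% GC. The start sites of CDKN2C differed among themselves: the middle window had 5 SP1 matches at 77.2% GC, whereas the upstream window had 45.6% GC and 1 E-box, and the downstream window had 48.8% GC with 1 E-box and 1 SP1 match. The AP-1 letters were found in 0 of the 12 windows. Such matches are descriptions of the letters and not of binding.

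In FaDu, 0 of the 10 genes were called by edgeR, and 4 of all 15475 genes were (0.0258%). At an unadjusted p below 0.05 there was 1 gene, CDKN2C, which ranked 641 by p among all genes. DESeq2 called 0, against 0.328% of genes with any count. CDKN2C counts were 1669, 1142 and 1181 in untreated and 1124, 940.6 and 831.2 in treated FaDu cells. The highest treated library stayed just under the lowest control, and 5.36% of all genes were lower without overlap in FaDu. This gave a log2 fold change of -0.46 ± 0.186 (SE, adjusted p = 0.582), and the replicate block gave -0.46 ± 0.0724 (SE, adjusted p = 0.0011), a call that 5.6% of all genes shared. With the same block, cell type markers moved in FaDu as well: KRT5 (log2 fold change -0.58), COL1A1 (-0.59), VWF (-1.32) and CDH5 (-0.86) were called lower and CD68 (0.51) higher, which made 1 of 8 squamous, 1 of 6 fibroblast, 1 of 4 leukocyte and 2 of 3 endothelial markers. In untreated and treated FaDu, respectively, the fibroblast markers, COL1A1 nearly alone, summed to 4.01 to 6.79 and 3.41 to 4.73 CPM, the leukocyte markers, CD68 nearly alone, to 17 to 28.2 and 29.5 to 36.1, and the endothelial markers to 2.56 to 8.34 and 1.57 to 4.93. Their part in the CDKN2C result was not tested. CDKN2B was also lower in each FaDu pair, with counts of 195.2, 192.3 and 144 against 147.8, 138.1 and 125.1, but the groups overlapped (log2 fold change -0.37 ± 0.229, SE, adjusted p = 0.656, and 0.0892 with the block at a fold under the minimum). CDKN2A, lower in each pair too, followed with -0.13 (95% interval -0.59 to 0.34), and 23.3% of all genes were lower in all 3 FaDu pairs.

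The other genes did not pass in FaDu, with or without the block. CDKN1A had 574, 640.4 and 497.9 normalized counts in untreated and 489, 513.1 and 634.3 in treated cells, higher in 1 pair of 3, with a log2 fold change of -0.07 (95% interval -0.48 to 0.35). CCND2, which was far more abundant here than in the other lines, had 321.8, 443 and 561.9 in untreated and 412.7, 458.7 and 740 in treated cells. It was higher in each pair, but the groups overlapped (log2 fold change 0.28 ± 0.326, SE, adjusted p = 0.823, and 0.27 ± 0.112 with the block, adjusted p = 0.134). GADD45A was likewise higher in each pair (0.22 ± 0.15, SE, adjusted p = 0.688), as 20% of all genes were, and with the block its 0.23 ± 0.0788 (SE, adjusted p = 0.0706) stayed under the minimum fold. The log2 fold changes of CDKN1B (-0.17, 95% interval -0.40 to 0.05), CDKN1C (-0.46, -1.41 to 0.48) and GADD45B (-0.11, -0.51 to 0.30) had intervals that included 0, as did that of CCND3 (0.05, -0.10 to 0.19).

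In SCC-9, edgeR called 0 of the 10 genes and 0 of all genes, and 0 of the 10 had an unadjusted p below 0.05. CDKN2A and CDKN2B were near 0 in both groups, where a change was not detectable, so these counts rest on the other genes. DESeq2 called 0 of the 10, against 0.0871% of genes with any count. CDKN2C counts were 1057, 1010 and 1092 in untreated and 917.1, 886.3 and 813.1 in treated cells, without overlap. The log2 fold change of -0.27 ± 0.187 (SE) had an adjusted p of 1, and with the block an adjusted p of 0.0612 but a fold under the minimum. GADD45A had 2642, 2696 and 2699 in untreated and 2375, 2400 and 2529 in treated cells, and GADD45B 768.2, 808.9 and 887 against 715.9, 643 and 656.6. Both were lower in all 3 pairs without overlap, with log2 fold changes of -0.14 ± 0.147 and -0.29 ± 0.169 (SE, both adjusted p = 1). Across all genes, 9.12% were lower without overlap in SCC-9. CDKN1A stayed high, with 3130, 3401 and 3616 in untreated and 3681, 3390 and 3807 in treated cells (log2 fold change 0.10, 95% interval -0.28 to 0.48). CCND3, which was higher in each SCC-9 pair, had a log2 fold change of 0.07 (95% interval -0.07 to 0.21), and 23.9% of all genes were higher in all 3 pairs of this line. The intervals of CDKN1B (log2 fold change -0.09, 95% interval -0.32 to 0.14), CDKN1C (-0.23, -1.13 to 0.66) and CCND2 (0.29, -0.62 to 1.21) included 0 too.

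CDKN2C was therefore lower in all 9 same-numbered pairs of the 3 lines, as were 8.42% of all genes, and lower without overlap in each line, as were 0.627% of all genes. CCND3 was higher in all 9 pairs, as were 7.7% of all genes. The differences between the responses of the lines were then tested. Between Detroit 562 and FaDu, 0 of the 10 responses differed by edgeR (0.239% of all genes did) and 2 had an unadjusted p below 0.05. Between Detroit 562 and SCC-9 the numbers were 0 (0.924% of all genes) and 2. They were 0 (0% of all genes) and 0 between FaDu and SCC-9. DESeq2 called 0 in each, against 1.34%, 3.32% and 0.0154% of genes with any count. In the comparisons with SCC-9, CDKN2A and CDKN2B were near 0 in that line, where a change was not detectable. The share of all genes with an unadjusted p below 0.05 was not computed. By edgeR's p, CCND3 and CDKN1A ranked 342 and 965 of 15475 genes against FaDu. Against SCC-9, CCND3 and GADD45A ranked 778 and 1200, and CDKN2C, at an unadjusted p of 0.059, ranked 2663. With the replicate block, the responses of 4 genes differed between Detroit 562 and FaDu, against 19.1% of all genes, and of 4 between Detroit 562 and SCC-9, against 26.9%.

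With that block the fall of CDKN2C was steeper in Detroit 562 than in FaDu (difference of log2 fold changes -0.38 ± 0.11, SE, adjusted p = 0.0376) and SCC-9 (-0.56 ± 0.111, SE, adjusted p = 0.00334). The CDKN1A response exceeded that in FaDu by 0.63 ± 0.176 (SE, adjusted p = 0.0319) and that in SCC-9 by 0.46 ± 0.158 (SE, adjusted p = 0.0522). The GADD45A response exceeded that in SCC-9 by 0.55 ± 0.115 (SE, adjusted p = 0.005), but its difference from FaDu was 0.18 ± 0.118 (SE, adjusted p = 0.359). CCND3 responses were larger in Detroit 562 by 0.30 and 0.27, respectively, and CDKN2A was lower against FaDu by a difference of -0.36 ± 0.117 (SE, adjusted p = 0.0608). The genes called in neither comparison were, against FaDu and SCC-9 and without the block, CDKN1B (-0.05 ± 0.15 and -0.13 ± 0.153), CDKN1C (-0.72 ± 0.585 and -0.95 ± 0.566), CCND2 (0.62 ± 0.671 and 0.60 ± 0.728) and GADD45B (0.055 ± 0.256 and 0.24 ± 0.239). For CDKN2B the difference from FaDu was -0.37 ± 0.32 (SE) and did not pass (adjusted p = 0.677, and 0.175 with the block). Between FaDu and SCC-9, without the block, the differences were -0.165 for CDKN1A, -0.08 for CDKN1B, -0.23 for CDKN1C, -0.19 for CDKN2C, -0.01 for CCND2, -0.03 for CCND3, 0.36 for GADD45A and 0.18 for GADD45B, with an adjusted p of 1 for each.

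Before treatment the lines differed in most of these genes: 9 of 10 between Detroit 562 and FaDu, 9 between Detroit 562 and SCC-9, and 8 between FaDu and SCC-9. Of all genes, 61%, 65.4% and 64.2% differed in these comparisons, which share control libraries. To compare genes, normalized counts were put on the CPM scale and divided by exon length in kilobases. The counts include intronic reads, which raises this measure for long genes such as CCND3.

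**Figure D4:**
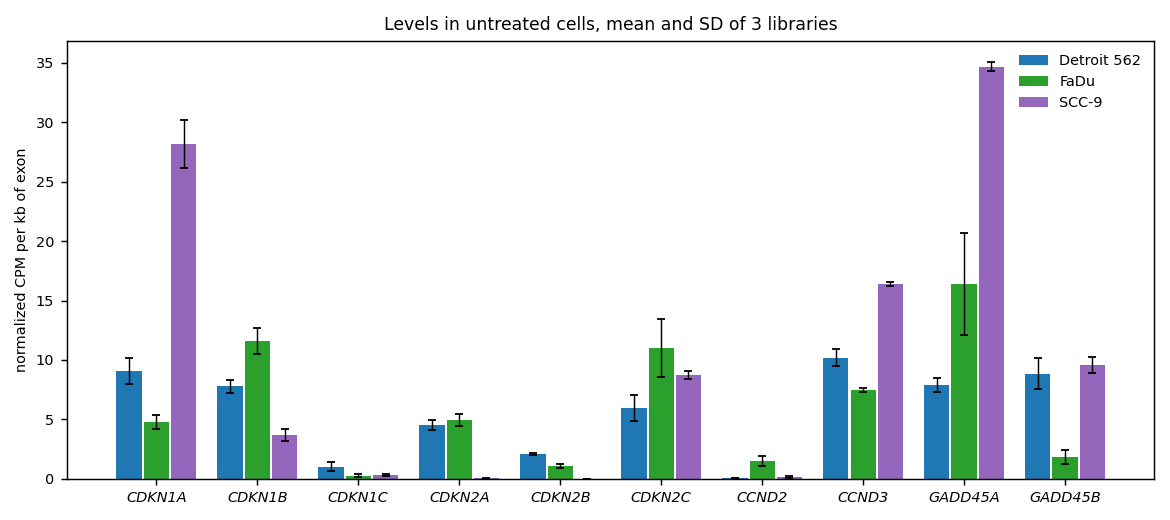
Bars show the level of each gene in untreated Detroit 562, FaDu and SCC-9 as normalized CPM per kilobase of exon (linear axis from 0, mean with SD, n = 3). GADD45A and CDKN1A reach 34.7 and 28.2 in SCC-9, while CDKN2A and CDKN2B have no visible bar there.

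On the scale per kilobase, the most abundant of the 10 genes in untreated Detroit 562 was CCND3 at 10.2 ± 0.736 (SD, n = 3), followed by CDKN1A at 9.09 ± 1.1 and GADD45B at 8.84 ± 1.29, which lay within each other's spread. In FaDu GADD45A led with 16.4 ± 4.26, followed by CDKN1B at 11.6 ± 1.1 and CDKN2C at 11 ± 2.43. In SCC-9 GADD45A at 34.7 ± 0.415 and CDKN1A at 28.2 ± 2.03 stood above CCND3 at 16.4 ± 0.136. The D cyclin CCND1, not one of the 10 genes, was above all of them in each line, with 228 ± 31.1, 175 ± 15.5 and 43.9 ± 5.07 in Detroit 562, FaDu and SCC-9 (SD, n = 3).

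CDKN1A was ordered SCC-9, Detroit 562, FaDu, with mean normalized counts of 3382 ± 244, 1092 ± 132 and 570.8 ± 71.3 (SD, n = 3). Each step passed the test, with log2 differences of -1.63 between Detroit 562 and SCC-9 (adjusted p = 5.61e-07) and 0.94 between Detroit 562 and FaDu (adjusted p = 0.000326). CDKN1B had a different order, with 2267 ± 214 in FaDu, 1513 ± 101 in Detroit 562 and 720.4 ± 99.2 in SCC-9, and all neighbours differed (adjusted p = 1e-04 and 1.14e-07). CDKN1C was higher in Detroit 562 (99.06 ± 37.9) than in SCC-9 (31.5 ± 10) and FaDu (26.94 ± 13.6), which did not differ beyond their spread (log2 difference -0.23, adjusted p = 0.638).

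CDKN2A and CDKN2B were abundant in Detroit 562 and FaDu and almost without reads in SCC-9. Untreated SCC-9 libraries 1, 2 and 3 held 0, 3 and 8 raw counts of CDKN2A, and treated libraries held 0, 0 and 6. For CDKN2B the raw counts were 0, 0 and 1 and then 0, 0 and 4. Most of the few reads thus lay in the libraries numbered 3. Against SCC-9, untreated CDKN2A was 196 times higher in Detroit 562 (95% interval 109 to 393) and 215 times higher in FaDu (120 to 431), from 2037, 2388 and 11 summed counts. These ratios depended on single SCC-9 libraries, with 489 and 536 when control library 3 was left out and 129 and 142 without control library 1. The ratio for CDKN2B was 1030 (185 to 40900) in Detroit 562 and 543 (97 to 21500) in FaDu, from 977, 549 and 1 summed counts, and with SCC-9 set to the floor of 3 counts it was 345 and 181. Without control library 1 it was 683 and 358. Without control library 3 SCC-9 held 0 counts of CDKN2B, and the lower 95% limits of the ratio were 191 and 99.9. At the floor of 3 counts over the group, that set gave 235 and 123. Whether the few reads came from SCC-9 RNA was not tested. These intervals are exact and cover counting error only, and no HGF fold is given for either gene in SCC-9. For CDKN2A the difference between Detroit 562 and FaDu did not pass (log2 difference -0.14, 95% interval -0.60 to 0.33, adjusted p = 0.592), whereas CDKN2B was higher in Detroit 562 by 0.92 ± 0.224 (SE, adjusted p = 0.0014).

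Genes of the table that lie within 2000 kb of CDKN2A were examined for the same pattern. Distances were taken between the lowest coordinates of the genes, whatever their strand. For a gene on the lower side of CDKN2A they include that gene's own length. Of 26 such genes, CDKN2A and CDKN2B included, 10 had a mean above 20 normalized counts in both untreated Detroit 562 and FaDu, and 3 of these were below 5 in SCC-9. These were CDKN2A, CDKN2B and HACD4, an enzyme of very long chain fatty acid elongation, which lies 968.2 kb away and had 115.4, 26.76 and 0 mean normalized counts in Detroit 562, FaDu and SCC-9. The others of these 10 genes were not low, the lowest being DMRTA1. SCC-9 had 2880 for MTAP, 1218 for KLHL9 and 55.08 for DMRTA1. MTAP, a methionine salvage enzyme, has its lowest coordinate 165.2 kb from that of CDKN2A. The interferon genes IFNB1 and IFNW1 and the IFNA genes in this interval were at or near 0 in all 3 lines, and IFNE had 42.84, 11.51 and 12.62. MTAP shares reads with a readthrough gene on its strand. DNA copy number and methylation were not measured in these data.

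**Figure D5:**
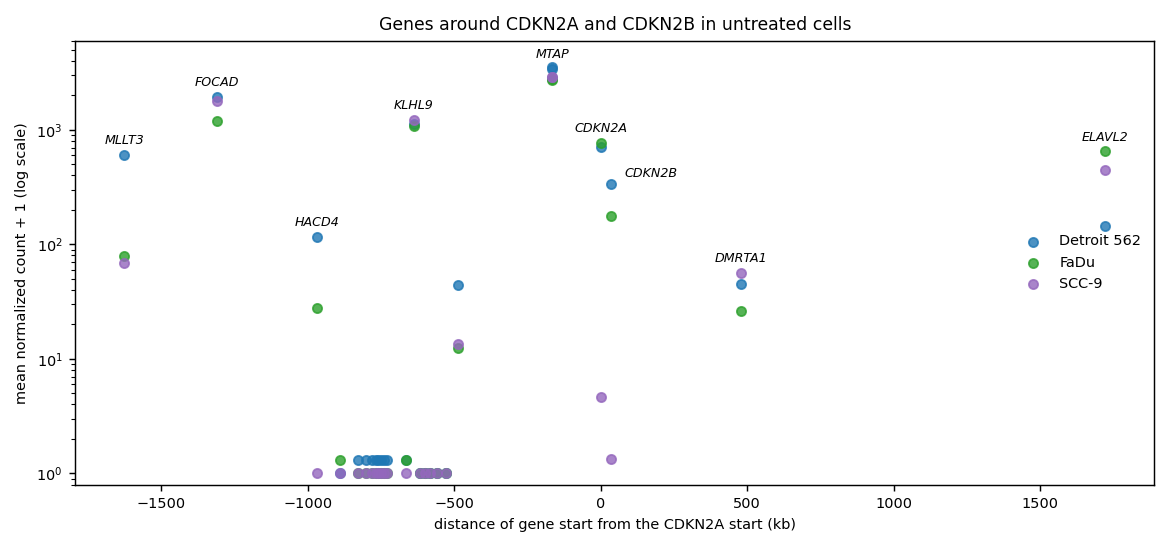
Mean normalized counts plus 1 (log axis) of genes around CDKN2A in the untreated lines, against the distance between the lowest coordinates of each gene and CDKN2A in kilobases. SCC-9 points fall to the bottom for CDKN2A, CDKN2B and HACD4 but not for MTAP, KLHL9 or DMRTA1.

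CDKN2C was lowest in Detroit 562 (718.6 ± 136, SD, n = 3), and the difference between FaDu (1331 ± 294) and SCC-9 (1053 ± 41.3) did not pass (log2 difference 0.34, adjusted p = 0.11), although it did without FaDu control library 2 (0.44, adjusted p = 0.066) or 3 (0.42, adjusted p = 0.0809). CCND2 showed the widest range of the cyclins, with 442.2 ± 120 in FaDu, 37.92 ± 21 in SCC-9 and 12.13 ± 5.31 in Detroit 562. FaDu exceeded SCC-9 by a log2 difference of 3.53 ± 0.394 (SE, adjusted p = 3.89e-07), and SCC-9 and Detroit 562 also differed, although single libraries overlapped (adjusted p = 0.0107). CCND3 was ordered SCC-9 (3789 ± 31.5), Detroit 562 (2363 ± 170) and FaDu (1728 ± 34.9), and the largest of its adjusted p values was 1.31e-05. Without Detroit 562 control library 3 its difference between Detroit 562 and FaDu was 0.39, just under the minimum.

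GADD45A followed the order SCC-9 (2679 ± 32, SD, n = 3), FaDu (1267 ± 329) and Detroit 562 (607.3 ± 45.9), with log2 steps of -1.08 between FaDu and SCC-9 and -1.06 between Detroit 562 and FaDu (adjusted p = 5.33e-06 and 9.66e-06). GADD45B differed from it in that FaDu was low, with 159.1 ± 50.6 against 757.8 ± 111 in Detroit 562 and 821.4 ± 60.4 in SCC-9. Detroit 562 and SCC-9 did not differ beyond their spread (log2 difference -0.12, 95% interval -0.47 to 0.24), whereas FaDu was lower than Detroit 562 by a log2 difference of 2.25 ± 0.184 (SE, adjusted p = 8.74e-09).

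The relatives that act beside these genes were examined as lists. In Detroit 562, 3 of 16 other genes of the cyclin D, RB and E2F axis changed: CDC25A, the phosphatase that activates CDK2, rose by 0.52 ± 0.163 and E2F5 by 0.55 ± 0.144, and CDKN2D, the remaining INK4 gene, fell by 0.44 ± 0.145 on the log2 scale (SE, adjusted p = 0.0293, 0.0122 and 0.0345). This share was close to the 17.9% of all genes. The count was 1 without control library 1, control library 2 or HGF library 3 and 0 at the stricter threshold (adjusted p under 0.05, log2 fold change 1 or more). The median of this list was 0.13. CCND1 had log2 fold changes of 0.23, 0.23 and 0.30 in Detroit 562, FaDu and SCC-9 and was called in none, with adjusted p values of 0.145, 0.62 and 1. Of 10 genes of CDKN1B turnover and CDK activation, 1 rose, the CDK7 partner CCNH (0.46 ± 0.063, SE, adjusted p = 0.000376), and the median was 0.07.

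A list of 8 genes held the family member GADD45G and partners of GADD45 proteins, with a median of -0.05. Of these 2 fell, GADD45G itself (-0.89 ± 0.37, SE, adjusted p = 0.0852) and the p38 kinase activator MAP2K6 (-1.21 ± 0.357, SE, adjusted p = 0.0221). Of all genes, 11.7% were called lower. The count was 1 with DESeq2, without the filter on low counts, with the filter of 50 counts, in the line fitted alone, and without control library 1, HGF library 2 or HGF library 3. Of 10 proliferation genes such as MKI67, 0 were called in Detroit 562 by edgeR or DESeq2 and 1 had an unadjusted p below 0.05, with a median of -0.08. In FaDu and SCC-9, edgeR and DESeq2 called 0 of the 44 genes of these 4 lists, and 4 and 3 had an unadjusted p below 0.05, respectively. The share of all genes below that unadjusted p was not computed in any line. With the block, MAP2K6 (-0.48, adjusted p = 0.0522) was called lower in FaDu.

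The genes whose levels most resembled 9 of the 10 over the 18 libraries, after removal of each line's mean, were ranked by Pearson's r as a description, since the libraries share treatment and replicate number. The closest were HINT2 (r = 0.971) and DCAF11 (0.96) for CDKN2C, and BOP1 (0.939) and LRWD1 (0.937) for CCND3. SYT7 (0.925) was closest to CDKN1C, CYB5R1 (0.92) to CDKN2A, MB21D2 (0.914) to GADD45A, SC5D (0.895) to CDKN1B and DLGAP4 (0.893) to CDKN1A. The lowest of these 9 values were those of CCND2 (FBXL18, 0.859) and CDKN2B (SMIM22, 0.858). The values for CDKN2A and CDKN2B include SCC-9 libraries with raw counts of only 0 to 8 and 0 to 4, respectively. There a few reads move the log2 level, and r without SCC-9 was not computed.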

How the data were processed

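mRNA was sequenced in 18 libraries of 3 cell lines. The authors prepared stranded libraries from poly(A) RNA, trimmed single-end reads with Cutadapt (1.16), aligned them with STAR (2.5.2b) to GRCh38.p12 with GENCODE annotation and counted reads with bedtools over whole gene extents on the gene's strand. The deposited values are raw counts, introns included, and a read in overlapping genes was counted for each. The analysis used edgeR 4.0.16 in R 4.3.3 (TMM, filterByExpr on 6 groups, quasi-likelihood test, all 18 libraries), on 15475 of 19901 genes, which include 18 duplicated pseudoautosomal rows. Differences of responses used the adjusted p alone. An exact two-sided permutation test of 3 against 3 libraries, run for each gene, cannot give a p under 0.1. Normalized counts were scaled to the mean effective library size. Alternatives were a replicate block, DESeq2 1.42.0, other filters and thresholds, single-line fits and left-out libraries.

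Same-numbered control and HGF libraries correlated across genes in their deviations from group means (r from 0.161 to 0.563 over the lines), so the numbers were taken as pairs. Means for other numbers were -0.227 to -0.136. Centering on group means largely fixes these once the same-numbered values are known, so they add no separate support. The study repeated the experiment, but the labels do not say whether libraries were separate cultures, and p-values measure the spread between these libraries. All 10 genes were named in every comparison (without HGF folds of CDKN2A and CDKN2B in SCC-9), and genes of the lists where they were called. A further list and the genes most like GADD45B are not reported here. SCC-9 ratios without single libraries were added after seeing the data. The 10 genes, the lists and the tests were chosen with earlier results of these data known.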

Additional observations from a re-analysis of the deposited data

Results flagged for a closer look

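Responses to HGF differed between lines in 8 tests of the difference itself, all of them with the replicate block and none without it. Against FaDu, the Detroit 562 response was larger by a log2 difference of 0.63 for CDKN1A and 0.30 for CCND3 and lower by -0.36 for CDKN2A and -0.38 for CDKN2C. Against SCC-9, it was larger by 0.46 for CDKN1A, 0.27 for CCND3 and 0.55 for GADD45A and lower by -0.56 for CDKN2C. With the block, 19.1% and 26.9% of all genes passed these tests. GADD45A was higher with HGF in 3 of 3 FaDu pairs and lower in 3 of 3 SCC-9 pairs, with a difference of 0.36 ± 0.21 (SE) that did not pass (edgeR, adjusted p = 1, and 0.183 with the block).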

How the results depend on the processing

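Of the Detroit 562 changes, 3 to 7 of the 10 genes were called with 1 library left out (10.2% to 23.2% of all genes). The replicate block called 7 (21.5%) and DESeq2 6 (14.2% of genes with any count). When the adjusted p had to be under 0.05 and the log2 fold change 1 or more, 1 (CDKN1C) was called, against 4.01% of all genes. The lowest count, 3, came without control library 1, control library 2 or HGF library 3. The shares of all genes were also lowest there (10.2%, 12.5% and 12%). The highest count, 7, came without control library 3 (23.2%). In FaDu the block called 1 gene (CDKN2C), which 0 of the left-out sets did. For the differences of response, the block called 4 genes against FaDu and 4 against SCC-9. Left-out libraries gave 0 to 1, the 1 being CCND3 without Detroit 562 control library 3. In that set 2.87% and 7.92% of all genes were called, against 0.239% and 0.924% with all libraries. Between untreated Detroit 562 and FaDu, 4 genes passed the stricter threshold, as did 32.2% of all genes. With a library left out 8 to 9 passed, against 59.9% to 60.7% of all genes. The block changed no call of these 10 genes beyond those given. Over all genes, the block called 867 in FaDu and 305 in SCC-9 against 4 and 0 without it, and DESeq2 without its prior called 64 and 17. Signs changed with a left-out library only for fold changes that passed no test: CCND2 in FaDu (-0.011 to 0.49) and SCC-9 (-0.14 to 0.65), CDKN1A in FaDu (-0.18 to 0.025), CDKN1B (-0.19 to 0.012) and CDKN1C (-0.46 to 0.02) in SCC-9, and GADD45B in Detroit 562 (-0.16 to 0.091) and FaDu (-0.26 to 0.18). The same held for the Detroit 562 minus FaDu responses of CDKN1B (-0.13 to 0.053), GADD45A (-0.034 to 0.32) and GADD45B (-0.24 to 0.21) and for untreated CDKN1C between FaDu and SCC-9 (-0.46 to 0.15), and for the FaDu minus SCC-9 responses of CDKN1B (-0.185 to 0.025), CDKN1C (-0.60 to 0.008), CDKN2C (-0.32 to 0.005), CCND2 (-0.36 to 0.43) and CCND3 (-0.046 to 0.002). Low counts limit CCND2 in Detroit 562 and CDKN1C in FaDu and SCC-9, and for CDKN2A and CDKN2B in SCC-9 a change with HGF was not detectable at this depth. The cause of these shifts was not tested.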

Other observations

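GADD45G, the remaining GADD45 gene, was higher in untreated Detroit 562 and FaDu than in SCC-9, an order unlike those of GADD45A and GADD45B. The log2 differences were 4.76 ± 0.572 and 4.18 ± 0.598 (SE, edgeR, adjusted p = 7.01e-07 and 5.73e-06). Their size is uncertain because untreated SCC-9 libraries held only 1, 2 and 2 raw counts. Detroit 562 had 68, 32 and 39 and FaDu 44, 30 and 24. Between Detroit 562 and FaDu GADD45G was called with the replicate block only (0.58, edgeR, adjusted p = 0.0844, against 0.151 without the block). Like CDKN2C, CDKN2D was lower in untreated Detroit 562 (164.8 ± 22.1 normalized counts, SD, n = 3) than in FaDu (330.5 ± 63.7) and SCC-9 (345.2 ± 2.82). Its log2 fold change with HGF was -0.44, -0.40 and 0.07 in Detroit 562, FaDu and SCC-9, and the difference between Detroit 562 and SCC-9 was -0.52 ± 0.196 (SE, edgeR, adjusted p = 0.243, and 0.0193 with the replicate block).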
